A study of Homo sapiens with 8 samples.

Results

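The S100 genes encode small calcium-binding proteins. They were examined here in a xenograft of MOLM14, a human acute myeloid leukaemia cell line labelled FLT3-ITD (a duplicated stretch within the FLT3 receptor gene) and MLLr (a rearrangement of MLL). Members were the rows of the deposited count table whose gene symbol was S100A4, S100A6, S100A8, S100A9, S100A10, S100A11, S100A12, S100A13 or S100P. This gave 9 genes of the 60676 in the table. S100A12 had 0 counts in 4 of the 8 libraries, and the other 8 genes had counts in every library. All 8 libraries came from mice carrying MOLM14 cells. 4 libraries held marrow cells purified by human CD45 sorting, and the other 4 pieces of liver in which, per the labels, mouse and human cells were mixed. Within each tissue label, 1 library came from vehicle with standard diet, 1 from vehicle with ketogenic diet, 1 from gilteritinib with standard diet and 1 from gilteritinib with ketogenic diet. The diet ran for 3 weeks and gilteritinib, an inhibitor of the FLT3 kinase, for 1 week. No combination had a replicate, MOLM14 is 1 cell line, and the labels used here give neither the mouse strain and age nor the number of animals behind a library.

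S100 proteins carry a pair of EF-hand loops, and most change shape when calcium binds, which opens a surface for partner proteins. In myeloid cells the family is known above all for S100A8 and S100A9, which pair to form calprotectin, a major protein of the cytosol of monocytes and neutrophils. S100A12 is a related calgranulin of the same cells. Released calgranulins are ligands of TLR4 and of AGER, the receptor also called RAGE. S100A4 binds the heavy chain of non-muscle myosin, S100A6 binds annexins and CACYBP, S100A10 binds ANXA2 and S100A11 binds ANXA1. S100A13 takes part in the export of FGF1 and IL1A, and S100P binds ezrin and AGER.

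In GRCh38 with GENCODE 29 coordinates, S100A10 (ENSG00000197747) was at chr1:151982915-151994390 and S100A11 (ENSG00000163191) at chr1:152032506-152047907, both on the minus strand. S100A9 (ENSG00000163220) lay on the plus strand at chr1:153357854-153361027, S100A12 (ENSG00000163221) on the minus strand at chr1:153373706-153375649, and S100A8 (ENSG00000143546) on the minus strand at chr1:153390032-153391188. S100A12 therefore lay between S100A9 and S100A8. S100A6 (ENSG00000197956, chr1:153534599-153536244), S100A4 (ENSG00000196154, chr1:153543613-153550136) and S100A13 (ENSG00000189171, chr1:153618787-153631360) followed on the minus strand, with 7.37 kb between S100A6 and S100A4. The 8 genes on chromosome 1 spanned 1.65 Mb. S100P (ENSG00000163993) was the only member elsewhere, at chr4:6693069-6697170 on the plus strand. Of the 2216 exon bases of S100A13, 536 were shared with AL162258.1, a transcript on the same strand, and 235 with S100A1 on the opposite strand. The counts of S100A13 are therefore uncertain. S100A6 shared 23 bases with an antisense transcript, and the table also listed the pseudogenes S100A11P1 and S100A11P2, at 0 to 1 and 5 to 14 counts per library, beside 3746 to 7382 for S100A11.

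The promoters of S100A8 and S100A9 are shown because this pair moved together with the drug in both sets of libraries, and because they were the only members whose 250 bases before the RefSeq start held no annotated exon base. RefSeq promoter sequences (GRCh38.p14) were found for all 9 members. The S100A8 window is chr1:153391189-153391438 on the minus strand and the S100A9 window is chr1:153357604-153357853 on the plus strand. Each is written along its gene, 5′ to 3′, and capitals mark the matches to 4 motifs, searched on both strands.
S100A8: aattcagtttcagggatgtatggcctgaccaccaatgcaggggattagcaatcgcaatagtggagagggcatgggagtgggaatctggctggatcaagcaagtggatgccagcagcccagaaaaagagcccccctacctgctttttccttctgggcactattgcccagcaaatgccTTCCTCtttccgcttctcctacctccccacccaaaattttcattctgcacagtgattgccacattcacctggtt
S100A9: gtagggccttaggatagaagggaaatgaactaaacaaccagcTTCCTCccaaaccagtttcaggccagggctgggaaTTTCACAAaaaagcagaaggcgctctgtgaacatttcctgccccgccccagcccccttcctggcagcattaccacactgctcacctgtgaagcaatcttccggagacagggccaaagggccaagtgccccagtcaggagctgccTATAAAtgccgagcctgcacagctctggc
The motif used for C/EBP factors was TTNNGNAA. The motif used for the core of PU.1 sites was GAGGAA. The TATA box was searched as TATAAA, and AP-1 sites as TGANTCA. No pair of matches overlapped in these windows. Counting the base before the start as -1, the S100A8 window held the PU.1 core on the opposite strand, at -74 to -69. The S100A9 window held the PU.1 core at -208 to -203 and the C/EBP motif at -173 to -166, both on the opposite strand, and a TATA box at -29 to -24. Among the 250-base windows of 35116 promoters, the PU.1 core was present in 23.6%, the C/EBP motif in 33.2%, the TATA box in 10.7% and the AP-1 motif in 6.57%. Such matches describe letters only.

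Library totals ran from 13605936 to 33611830 counts, and in the libraries labelled liver both gilteritinib libraries were deeper (26499478 and 27657147) than both vehicle libraries (13605936 and 16542212). The tissue label coincided with the batch code in the labels, so tissue and batch cannot be told apart. The 8 hepatocyte markers summed to 0.147 to 0.605 counts per 1000000 (CPM) under the liver label, beside 0.327 to 0.578 CPM in marrow, with ALB, TTR, APOB and CYP3A4 at 0 counts in all 8 libraries. The 8 leukaemia cell markers summed to 1048 to 1326 CPM there and 1188 to 1438 CPM in marrow. The table counts human genes, and how mouse reads were handled is not known. The hepatocyte counts therefore cannot show whether mouse liver cells were present. Libraries with the liver label are called labelled liver throughout. In bulk RNA, fewer cells of a type and less RNA per cell cannot be told apart.

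S100 transcripts fell into an abundant and a scarce class, and the same 4 genes made up nearly all of the signal in every library. S100A4, S100A6, S100A10 and S100A11 together held 99.1% to 99.7% of the members' counts. All 9 members together took 0.101% to 0.159% of a library's counts. Per kilobase of merged exons, the median level over the 8 libraries was 545 CPM per kb for S100A4, 348 for S100A11, 176 for S100A6 and 86.4 for S100A10. The next levels, on the same scale, were 2.34 for S100A9, 1.94 for S100A8, 1.64 for S100P, 0.367 for S100A13 and 0.0929 for S100A12. The ranges over libraries overlapped between S100A11 and S100A6 and between each pair of neighbours from S100A9 to S100A12, and did not overlap between S100A4 and S100A11, S100A6 and S100A10, or S100A10 and S100A9. By the length of the longest coding transcript, S100A8 came before S100A9. Of the 11 other S100 genes examined, S100A7, S100A7A, S100A14, S100G and S100Z had 0 counts in all libraries, and S100A3 and S100B had median levels of 3.24 and 2.32 CPM per kb.

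**Figure D1:**
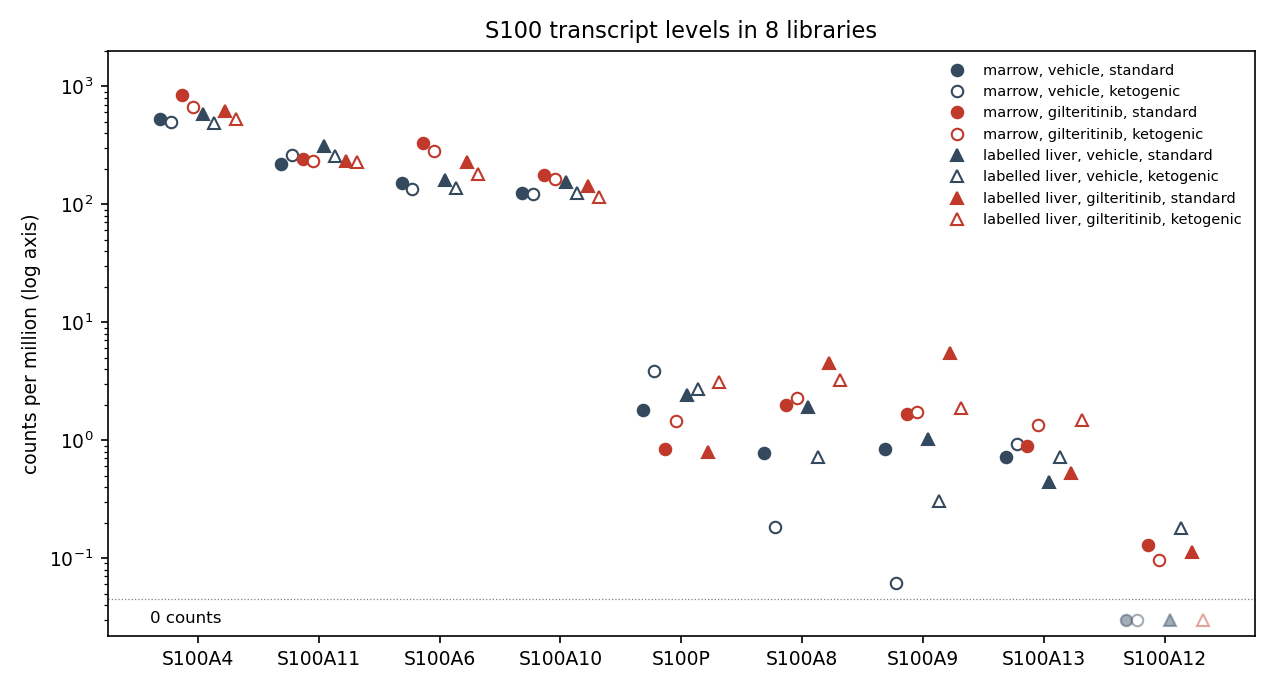
Level of each S100 gene in each library, in counts per 1000000 on a log axis. Each point is 1 library; circles are marrow and triangles labelled liver, red is gilteritinib, dark blue is vehicle, filled symbols are standard diet and open symbols ketogenic diet. The 4 genes on the left stay above 100 CPM in every library, the other 5 below 6 CPM, and libraries with 0 counts of S100A12 are drawn below the dotted line.

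With gilteritinib in bone marrow, 5 of the 8 tested members rose, 1 fell and 2 did not pass the test. S100A12 did not reach the minimum of 10 counts in at least 2 libraries and was not tested, here or in any comparison. Over all 14029 genes tested, 20.3% were called at an adjusted p under 0.05, 10.5% higher and 9.80% lower. In the libraries labelled liver 3 of the 8 tested members rose and none fell, where 2.27% of 14092 genes were called, 1.42% higher and 0.852% lower. The members' median log2 fold change was 0.65 in marrow and 0.31 in labelled liver, beside -0.0064 and -0.00066 for all tested genes. S100A8 in marrow, S100A9 under both labels and S100A13 in labelled liver reached 10 counts in only 1 vehicle library, and so passed the filter only with a gilteritinib library. The counts and medians over tested members are therefore descriptions.

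**Figure D2:**
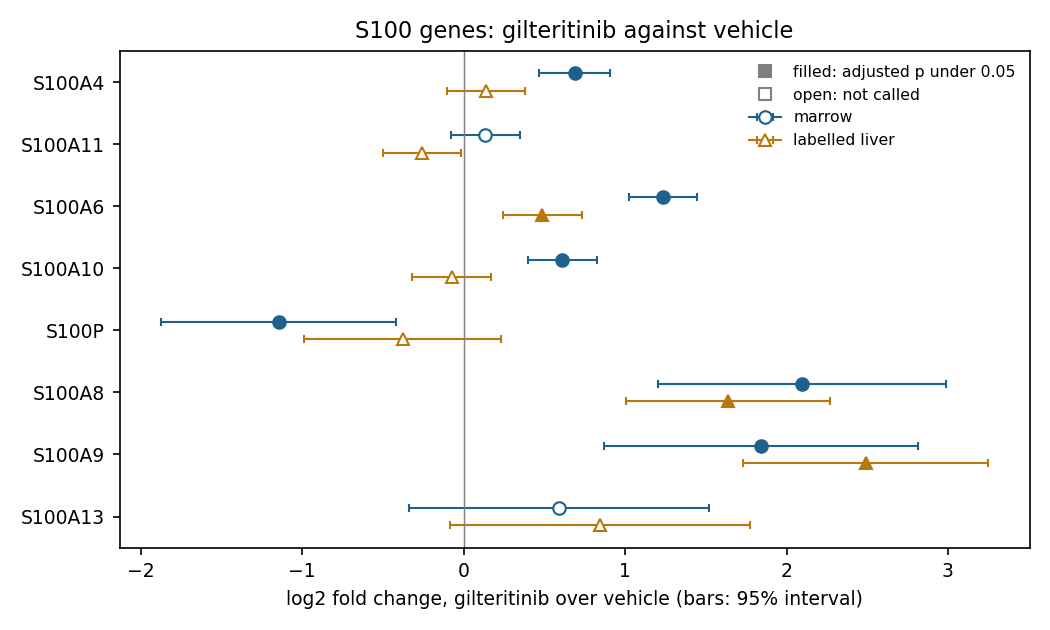
Log2 fold change of gilteritinib over vehicle for the 8 tested S100 genes, with 95% intervals from the fitted model. Circles are marrow, triangles labelled liver, and filled symbols had an adjusted p under 0.05. S100A6, S100A8 and S100A9 lie above 0 under both labels, whereas S100A4 and S100A10 do so with an adjusted p under 0.05 only in marrow.

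S100A8 and S100A9, the calprotectin subunits, rose with gilteritinib under both labels, from levels near the detection limit. S100A8 in marrow stood at 0.774 CPM (26 counts) with vehicle and standard diet, 0.184 (3 counts) with vehicle and ketogenic diet, 1.99 (31 counts) with gilteritinib and standard diet and 2.26 (47 counts) with gilteritinib and ketogenic diet. Both gilteritinib libraries were above both vehicle libraries. Such non-overlap of 2 libraries with 2, here and below, is a description, and its share over all genes was not counted. The fitted log2 fold change was 2.09 ± 0.44 (SE; 4.27-fold, edgeR adjusted p = 0.000396). S100A8 in labelled liver, in the same order, was 1.91 (26 counts), 0.725 (12 counts), 4.53 (120 counts) and 3.25 CPM (90 counts). The groups again did not overlap, and the log2 fold change was 1.64 ± 0.32 (3.11-fold, adjusted p = 9.39e-05).

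S100A9 in marrow was 0.833 CPM (28 counts), 0.0614 (1 count), 1.67 (26 counts) and 1.73 (36 counts) in that order. The vehicle library with ketogenic diet was the lowest of the 8. The log2 fold change was 1.84 ± 0.48 (3.59-fold, adjusted p = 0.00411). S100A9 in labelled liver was 1.03 (14 counts), 0.302 (5 counts), 5.47 (145 counts) and 1.88 CPM (52 counts). Gilteritinib libraries were above vehicle libraries here too, with the highest level under gilteritinib and standard diet. The log2 fold change was 2.49 ± 0.39 (5.62-fold, adjusted p = 6.09e-08), the largest of the 8 tested members under either label.

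The marrow call of S100A8 and S100A9 rested on the ketogenic pair of libraries. On ketogenic diet the gilteritinib to vehicle ratio was 13.8 for S100A8 (exact 95% interval 4.45 to 69.4, counting error only) and 31.8 for S100A9 (5.35 to 1288), against denominators of 3 counts and 1 count. On standard diet it was 2.75 (1.58 to 4.83) and 2.15 (1.21 to 3.80). Without the marrow library of vehicle and ketogenic diet the log2 fold changes were 1.48 (adjusted p = 0.063) and 1.12 (0.239), and without that of gilteritinib and ketogenic diet 1.48 (0.0654) and 1.12 (0.243). The call of S100A9 was also lost without diet as a term (1.73, adjusted p = 0.0578). In labelled liver, leaving out any 1 of the 4 libraries lost the calls of S100A6, S100A8 and S100A9, with log2 fold changes of 0.46 to 0.51, 1.25 to 2.23 and 2.41 to 2.69, and adjusted p of 0.193 to 0.418, 0.214 to 0.503 and 0.081 to 0.434. These fits take the drug effect from a single pair of libraries. In the fit of all 8 libraries with 1 drug term, in which 4.92% of 14749 genes were called, 3.00% higher and 1.92% lower, S100A8 (1.86 ± 0.29, adjusted p = 0.00263) and S100A9 (2.25 ± 0.35, 0.00281) were called, and they stayed so without each library in turn.

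The S100A8 share of the pair's counts varied from 45.3% to 75.0%, and most libraries had more counts of S100A8 than of S100A9. S100A8 made up 45.3% of the pair's 265 counts in labelled liver with gilteritinib and standard diet (exact binomial 95% interval 39.2% to 51.5%) and 63.4% of 142 counts with gilteritinib and ketogenic diet (54.9% to 71.3%). These intervals do not overlap, and they cover counting error only. In the other 6 libraries the share was 48.1% to 75.0%, on 4 to 83 counts. Summed, the pair ranged from 0.246 CPM in marrow with vehicle and ketogenic diet to the 265 counts of labelled liver with gilteritinib and standard diet, the highest of the 8.

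S100A12, the calgranulin encoded between them, was at the limit of detection. Both marrow vehicle libraries had 0 counts, which allows up to 0.0893 CPM on standard and 0.184 CPM on ketogenic diet, and both marrow gilteritinib libraries had 2. In labelled liver it had 0, 3, 3 and 0 counts in the order above, where 0 allows up to 0.220 and 0.108 CPM. No difference was detectable at this depth.

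**Figure D3:**
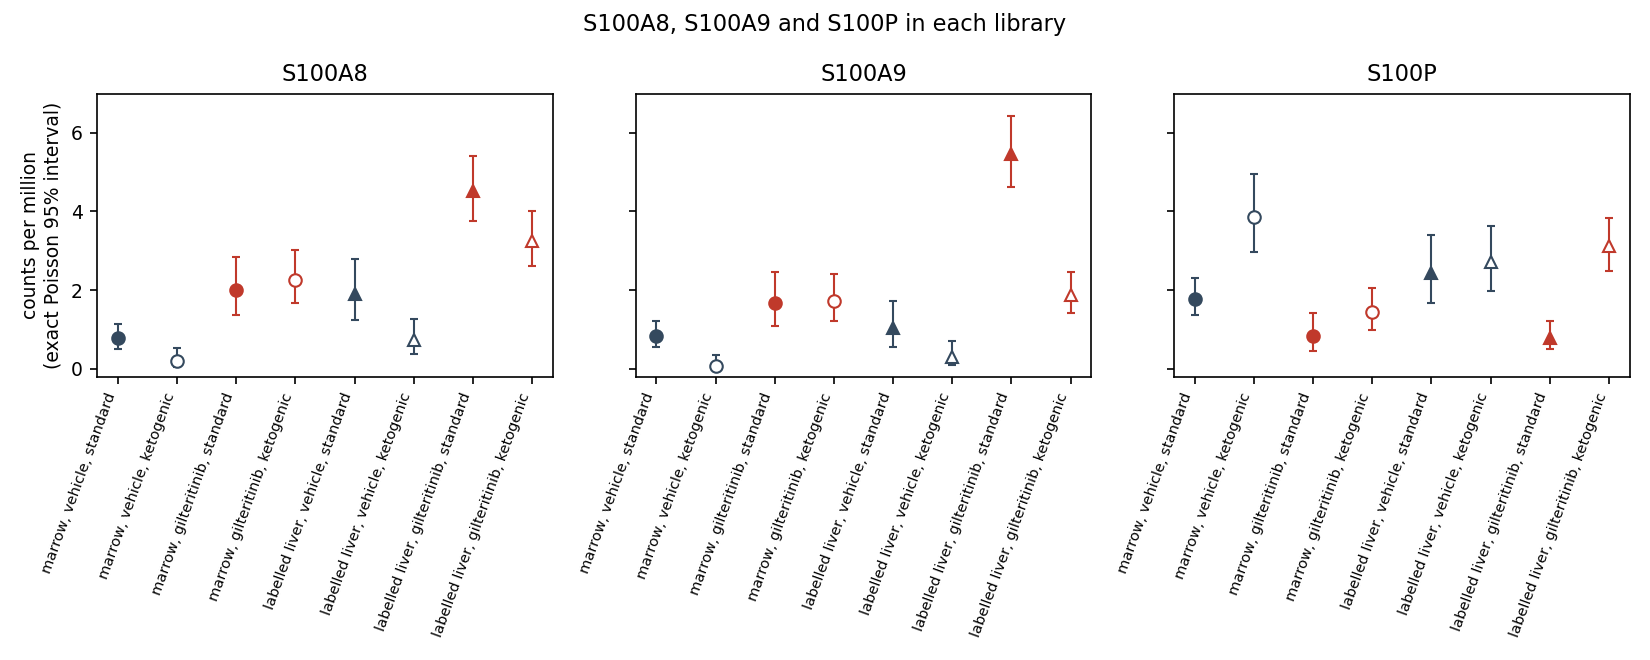
Level of S100A8, S100A9 and S100P in each of the 8 libraries, in counts per 1000000, with exact Poisson 95% intervals for counting error. Red is gilteritinib and dark blue vehicle; circles are marrow and triangles labelled liver; open symbols are ketogenic diet. S100A9 peaks at 5.47 CPM in labelled liver with gilteritinib and standard diet, and S100P is lowest, at 0.792 CPM, in the same library.

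Among the abundant members, S100A6, which binds annexins and CACYBP, moved most. In marrow it stood at 152 CPM with vehicle and standard diet, 136 with vehicle and ketogenic diet, 329.8 with gilteritinib and standard diet and 281 with gilteritinib and ketogenic diet. The ratio of gilteritinib to vehicle was nearly the same on each diet, 2.32 on standard and 2.33 on ketogenic. The log2 fold change was 1.23 ± 0.11 (2.35-fold, adjusted p = 1.60e-12), and it stayed called under every alternative run. In labelled liver the levels were 161, 138, 228 and 181 CPM, again without overlap, and the log2 fold change was 0.49 ± 0.12 (1.40-fold, adjusted p = 0.00791). S100A6 took 13.2% to 14.8% of the members' counts in the 4 vehicle libraries and 17.0% to 20.9% in the 4 gilteritinib libraries.

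S100A4, the myosin-binding member and the most abundant, rose in marrow. Its levels there were 528, 501, 841 and 663 CPM in the same order, with both gilteritinib libraries above both vehicle libraries. The log2 fold change was 0.69 ± 0.11 (1.61-fold, adjusted p = 4.03e-06). In labelled liver the levels were 586, 486, 616 and 532 CPM, the groups overlapped, and the log2 fold change was 0.14 ± 0.12 (adjusted p = 0.802, 95% interval -0.10 to 0.38). In each of the 4 matched pairs gilteritinib was above vehicle, by a ratio of 1.07 to 1.70. In the fit of all 8 libraries S100A4 was called at 0.41 ± 0.11 (adjusted p = 0.0393). That call was lost without any 1 of the 4 marrow libraries (0.31 to 0.37, adjusted p = 0.126 to 0.197), without the labelled liver library of vehicle and ketogenic diet (0.46, 0.0784) and without that of gilteritinib and ketogenic diet (0.47, 0.0525). It was also lost with scaling by library totals (0.32, 0.0593) and with the 4 matched pairs as a block (0.41, 0.0831).

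S100A10, the partner of ANXA2, also rose in marrow. The marrow levels were 125, 122, 177 and 163 CPM, without overlap, and the log2 fold change was 0.61 ± 0.11 (1.53-fold, adjusted p = 2.08e-05). In labelled liver they were 153, 124, 142 and 115 CPM, ordered by diet and not by drug, with a log2 fold change of -0.07 ± 0.13 (adjusted p = 0.939). ANXA2 itself had log2 fold changes of 0.12 ± 0.11 (adjusted p = 0.483) in marrow and -0.04 ± 0.12 (0.976) in labelled liver. The marrow calls of S100A4 and S100A10 held under all 14 alternatives, whereas in the fit of all 8 libraries S100A10 was called only without the labelled liver library of vehicle and standard diet (0.40, adjusted p = 0.0316; 0.27 and 0.238 with it).

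S100A11, the partner of ANXA1, was the abundant member that did not pass the test under either label. Its marrow levels were 219.6, 261, 241 and 233 CPM, with overlapping groups and a log2 fold change of 0.13 ± 0.11 (adjusted p = 0.401, 95% interval -0.08 to 0.35). In labelled liver it stood at 310.2, 255, 232 and 226 CPM, both gilteritinib libraries below both vehicle libraries, with a log2 fold change of -0.26 ± 0.12 (adjusted p = 0.401). ANXA1 had 0.03 ± 0.16 (adjusted p = 0.938) in marrow and -0.29 ± 0.17 (0.602) in labelled liver.

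**Figure D4:**
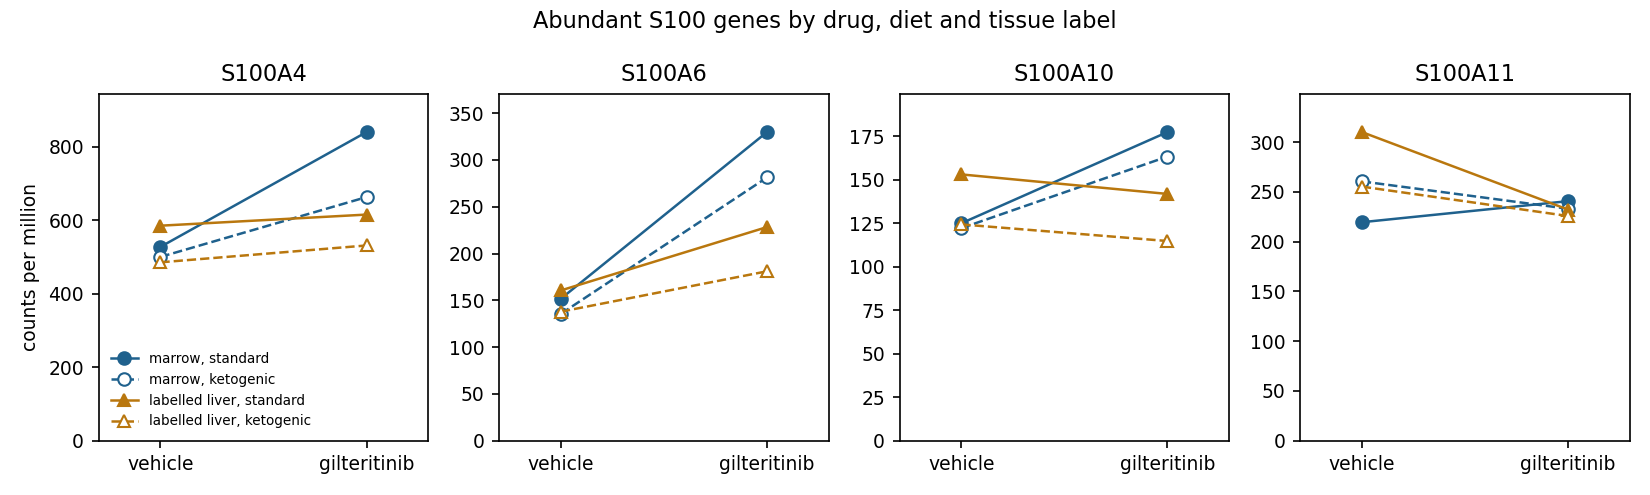
Level of the 4 abundant S100 genes with vehicle and with gilteritinib, in counts per 1000000 from 0, each line joining the 2 libraries of 1 tissue label and diet. Circles are marrow, triangles labelled liver, and dashed lines with open symbols ketogenic diet. S100A4 and S100A6 rise along all 4 lines, and S100A10 along both marrow lines. Along both labelled liver lines S100A10 and S100A11 lie lower with gilteritinib.

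The drug effect on 3 of the 4 abundant members differed between the labels when the difference itself was tested, and each of these calls was lost without some single libraries. When each label had its own drug term and diet term, 2.49% of 14749 genes were called, 1.62% with a larger and 0.868% with a smaller log2 effect in labelled liver. S100A6 (-0.75 ± 0.14, adjusted p = 0.00512), S100A10 (-0.69 ± 0.15, 0.0109) and S100A4 (-0.55 ± 0.14, 0.0432) had a smaller drug effect in labelled liver than in marrow, all on the log2 scale. S100A11 (-0.39 ± 0.15, 0.206), S100A8 (-0.46 ± 0.61, 0.784) and S100A9 (0.65 ± 0.73, 0.734) were not called. For S100A8 the 95% interval of the difference ran from -1.73 to 0.81 and for S100A9 from -0.87 to 2.17 on the log2 scale. S100A6 was lost without the labelled liver library of vehicle and standard diet (-0.77, 0.0795) or of gilteritinib and standard diet (-0.77, 0.0644). S100A10 was lost without either of those (-0.65, adjusted p = 0.147 and 0.134) or any marrow library (-0.71 to -0.67, 0.0563 to 0.0622), and S100A4 without each of the 8 (-0.66 to -0.45, 0.0757 to 0.449). S100A4 was also lost with scaling by library totals (-0.44, adjusted p = 0.117), with no count filter (-0.52, 0.126) and with counts thinned to the smallest library (-0.53, 0.0572). Whether tissue or batch goes with this difference cannot be told apart.

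S100P, the ezrin-binding member encoded on chromosome 4, went the other way. In marrow it stood at 1.79 CPM (60 counts), 3.87 (63 counts), 0.836 (13 counts) and 1.44 (30 counts), with both gilteritinib libraries below both vehicle libraries. The log2 fold change was -1.15 ± 0.36 (0.452-fold, adjusted p = 0.0186). In labelled liver it was 2.43 (33 counts), 2.72 (45 counts), 0.792 (21 counts) and 3.11 CPM (86 counts). The low value there was that of gilteritinib and standard diet, the groups overlapped, and the log2 fold change was -0.38 ± 0.31 (adjusted p = 0.783). Gilteritinib was below vehicle in 3 of 4 matched pairs, at ratios of 0.332 to 0.501, and at 1.21 (exact 95% interval 0.833 to 1.77) in labelled liver on ketogenic diet. The marrow call was lost without the library of vehicle and ketogenic diet (-0.97, adjusted p = 0.375) or of gilteritinib and ketogenic diet (-0.97, 0.38). It was also lost without diet as a term (-0.97, 0.184), with no count filter (-1.15, 0.0819), with a minimum of 50 counts (-1.14, 0.0504) and with separate terms over all 8 libraries (-1.14, 0.0544). In the fit of all 8 libraries S100P had -0.72 ± 0.28 (adjusted p = 0.146), and -1.15 (0.0425) without the labelled liver library of gilteritinib and ketogenic diet.

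S100A13, which takes part in FGF1 export, was scarce and was not called for the drug. Its marrow levels were 0.714, 0.921, 0.900 and 1.35 CPM (14 to 28 counts), and its labelled liver levels 0.441, 0.725, 0.528 and 1.48 CPM (6 to 41 counts). Gilteritinib was above vehicle in all 4 matched pairs, by a ratio of 1.22 to 2.16, with overlapping groups under each label. The log2 fold changes were 0.59 ± 0.46 (adjusted p = 0.398) and 0.84 ± 0.47 (0.558).

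Ketogenic diet gave 2 calls among the members, both in labelled liver. In marrow 0 of 8 tested members were called by edgeR, where 0.492% of genes were, and none by limma-voom or by DESeq2, which gave no adjusted p for S100A8, S100A9, S100A13 and S100P. Only S100P had an unadjusted p under 0.05 there (0.00324, log2 fold change 1.06 ± 0.34, adjusted p = 0.199). In labelled liver S100P rose and S100A9 fell, where 1.01% of genes were called, 0.362% higher and 0.653% lower. S100P, with the levels above, had a log2 fold change of 1.12 ± 0.32 (2.18-fold, adjusted p = 0.0409). Its ketogenic libraries were above its standard ones in all 4 matched pairs, by a ratio of 1.13 (0.703 to 1.82) to 4.10 (2.52 to 6.96), the latter under gilteritinib in labelled liver. S100A9 had -1.51 ± 0.32 (0.351-fold, adjusted p = 0.0016), and its ketogenic to standard ratio was 0.295 (0.0832 to 0.867) with vehicle and 0.359 (0.256 to 0.496) with gilteritinib.

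**Figure D5:**
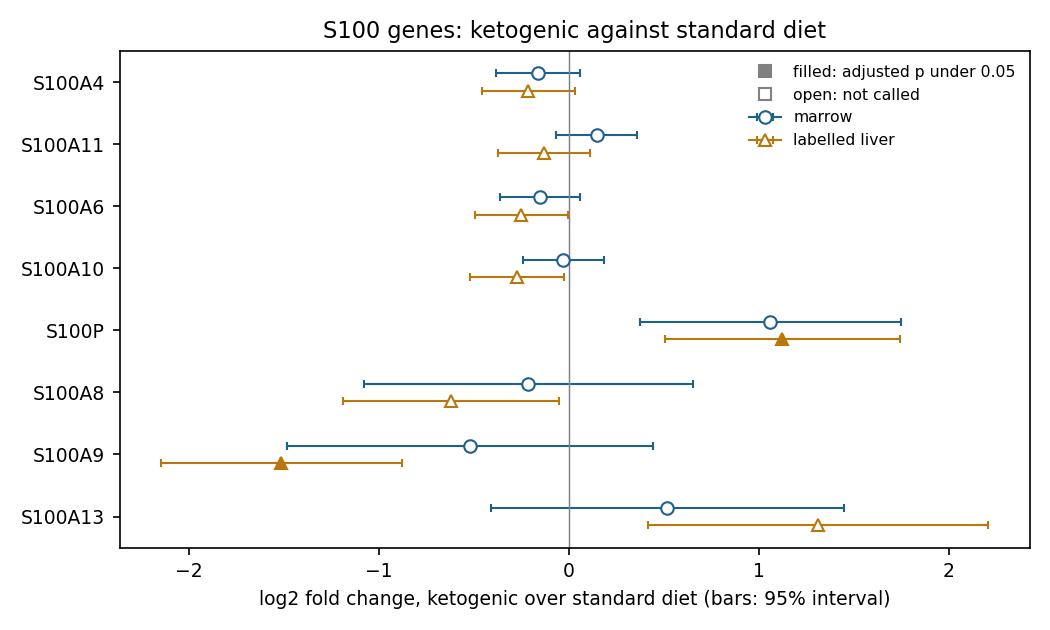
Log2 fold change of ketogenic over standard diet for the 8 tested S100 genes, with 95% intervals from the fitted model. Circles are marrow, triangles labelled liver, and filled symbols had an adjusted p under 0.05. Only S100P (1.12) and S100A9 (-1.51) in labelled liver are filled.

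Both diet calls in labelled liver were lost without any 1 of its 4 libraries. S100A9 kept a log2 fold change of -1.47 or -1.75, with adjusted p of 0.182 to 1. S100P had 2.03 without the library of vehicle and standard diet (adjusted p = 0.0922) or of vehicle and ketogenic diet (0.0833), and 0.16 (1) without either gilteritinib library. Over all 8 libraries, where 0.136% of genes were called for diet and 0.0542% called lower, no member was called by edgeR, DESeq2 or limma-voom. S100P had 1.07 ± 0.28 (adjusted p = 0.276), and with the 4 matched pairs of each label and drug as a block, where 129 genes were called, 1.11 (0.0214). Without that block S100A9 had -1.16 ± 0.32 (0.32) and S100A13 0.87 ± 0.30 (0.436), the last with ketogenic above standard in all 4 pairs (1.30 to 2.93). S100A4 and S100A6 were lower on ketogenic diet in all 4 pairs, at ratios of 0.833 to 0.953 and 0.828 to 0.902, with log2 fold changes of -0.18 ± 0.11 (0.607) and -0.19 ± 0.13 (0.683). S100A8 was lower in 3 of 4 pairs (-0.45 ± 0.27, 0.619).

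No member, and 0% of all 14749 tested genes, was called by edgeR for a diet effect that differed between labels, for a drug by diet interaction, or between marrow and labelled liver. At an unadjusted p under 0.05 these comparisons had 712, 706 and 2026 genes, DESeq2 called 3, 0 and 143 genes and limma-voom 3, 0 and 3, none of them members. DESeq2 gave no adjusted p for S100A8, S100A9, S100A13 and S100P between the labels. The largest interaction estimates were those of S100A9 (1.47 ± 0.91) and S100A8 (1.29 ± 0.61, unadjusted p = 0.0525), the vehicle library on ketogenic diet being the lowest of each label for both genes. Between the labels, S100A8 was 0.92 ± 0.27 log2 units higher in labelled liver (unadjusted p = 0.00449, adjusted p = 0.203) and S100A9 0.81 ± 0.33 higher (adjusted p = 0.301). The other 6 lay between -0.32 and 0.26.

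Most tested genes of a list that accompanies calprotectin in monocytes and neutrophils rose with gilteritinib as well. Of 20 listed, 11 were tested and 9 rose in marrow, with a median log2 fold change of 0.98 over the tested genes. In labelled liver 6 rose, with a median of 0.61. Over all tested genes 10.5% were called higher in marrow and 1.42% in labelled liver, with medians of -0.0064 and -0.00066. A gene high only with gilteritinib can pass the count filter, so these counts and medians are descriptions. FCN1, a monocyte lectin, rose by 4.23 ± 0.38 (adjusted p = 5.67e-12) and 4.12 ± 0.32 (2.34e-34), and MMP9, a secreted gelatinase, by 3.19 ± 0.29 (5.79e-12) and 1.51 ± 0.43 (0.0245). CD163, a haemoglobin scavenger receptor, rose by 2.53 ± 0.21 (1.57e-12) in marrow, and LYZ, lysozyme, by 1.77 ± 0.14 (5.35e-34) in labelled liver. LYZ stood at 1663 to 6397 CPM over the 8 libraries, whereas some other genes of neutrophil granules were nearly absent. LTF and CEACAM8 had 0 counts in all libraries, and CAMP, LCN2 and MMP8 had 4, 2 and 3 counts in total.

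Of 11 transcription factors known to act on S100 genes, 6 rose in marrow (median 0.42) and 4 in labelled liver (median 0.04). None fell, and 5 in marrow and 7 in labelled liver were not called. Over all tested genes 10.5% were called higher in marrow and 1.42% in labelled liver, with medians of -0.0064 and -0.00066. CEBPE rose by 1.38 ± 0.46 (adjusted p = 0.0284) and 1.85 ± 0.44 (0.00263), and CEBPD by 1.16 ± 0.15 (3.19e-08) and 0.75 ± 0.17 (0.00122). CEBPB rose by 1.00 ± 0.16 (4.25e-06) in marrow and KLF4 by 0.76 ± 0.15 (0.000165) in labelled liver. The first 3 encode C/EBP proteins, and CEBPE was scarce, at 0.294 to 2.65 CPM.

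Among the binding partners and receptors 4 genes were called in marrow, where 10.5% of all genes were called higher. Of 8 annexins, 1, ANXA4, rose (0.39 ± 0.11, adjusted p = 0.00519), and the median was 0.09. Of 7 tested receptors and co-receptors 2 rose, LY96 (0.78 ± 0.21, 0.00429), the co-receptor of TLR4, and CD33 (0.41 ± 0.11, 0.00676), and the median was 0.19. Of 8 tested intracellular partners 1 rose, AHNAK, a scaffold bound by S100A10 with ANXA2 (0.41 ± 0.11, 0.00318), and the median was -0.13. None of 16 other EF-hand genes was called, with a median of 0.01. In labelled liver no gene of these 4 lists was called for the drug, and their medians were 0.01, 0.12, -0.02 and 0.05 in that order.

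Of 11 other S100 genes 4 were tested in marrow, where S100A1 rose (1.42 ± 0.34, adjusted p = 0.00147), with exons that overlap those of S100A13, and S100B fell (-0.82 ± 0.28, 0.0281). The median was 0.88, and in labelled liver 0 of 3 were called, with a median of -0.24. Among 16 genes that neighbour the cluster, 7 were tested in marrow. SLC27A3 rose (0.31 ± 0.12, 0.0488) and ILF2 fell (-0.45 ± 0.10, 0.00126), with a median of -0.17. Over all genes tested in marrow 10.5% were called higher and 9.80% lower, so single calls in lists this short say little about the lists. The same 7 had no call in labelled liver (median -0.14). None of 7 epidermal genes with a fused S100 domain passed the count filter.

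With ketogenic diet in labelled liver, where 0.653% of all genes were called lower, 3 of the 11 tested monocyte and neutrophil genes fell and 8 were not called. FCN1 (-0.88 ± 0.24, adjusted p = 0.0385) and ITGAM (-0.71 ± 0.14, 0.000174), a phagocyte integrin chain, were among those that fell. Of 8 tested intracellular partners 1 fell, AHNAK (-0.51 ± 0.12, 0.00802). Without any 1 of the label's 4 libraries, 1 to 23 genes were called for diet in place of 143. The drug effect was smaller in labelled liver for 2 of the 11 monocyte and neutrophil genes, where 0.868% of all genes were called so. These were NCF1 (-1.02 ± 0.15, 0.00178) and CD163 (-1.38 ± 0.33, 0.0249).

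The summed level of macrophage markers was higher in gilteritinib than in vehicle libraries under both labels. In labelled liver the lower gilteritinib sum barely passed the higher vehicle sum. These sums were not tested. The 10 markers, of which CD163 is also in the monocyte list, summed to 41.5 and 32.9 CPM in the marrow vehicle libraries and 78.5 and 87.7 CPM in the marrow gilteritinib libraries. In labelled liver the sums were 44.8 and 29.9 CPM with vehicle and 66.9 and 45.4 CPM with gilteritinib. Between 3 and 6 of the 10 were at 0 in a library, with C1QB and TIMD4 at 0 in all, and CSF1R, ADGRE1 and CD163 held most of the counts. The 7 lymphoid markers, chiefly NKG7 and GNLY, summed to 76.5 and 90.2 CPM with vehicle and 114 and 125 CPM with gilteritinib in marrow, and to 78.2 to 92.3 CPM in labelled liver. The 9 neutrophil granule genes summed to 2029 to 3880 CPM in marrow and 2366 to 3651 CPM in labelled liver, almost all from PRTN3, AZU1, ELANE and MPO. Their part in the S100 differences was not tested.

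Across the 8 libraries, which share the drug and diet groups and the batch codes, S100A4 and S100A6 followed each other (Pearson r of log2 CPM 0.96), as did S100A8 and S100A9 (0.96) and S100A4 and S100A10 (0.93). S100P ran opposite to S100A6 (r = -0.74). Over 10154 genes whose log2 CPM averaged 2 or more, the patterns most like S100A4 were SH3BP5 (r = 0.99) and VENTX (0.97), and those most like S100A6 were CD163 and LY86 (0.99 each). NCF1 and IL1RN (0.98 each) were nearest to S100A10, and TNFSF14 (0.97) and KLC2 (0.93) to S100A11. For the scarce genes, whose values carry more counting error, the nearest were NPR3 and WRNIP1 (0.96 each) for S100A8, GLTP (0.97) and CMAHP (0.96) for S100A9, PHF13 (0.97) and GCC1 (0.96) for S100P, and ACBD6 (0.96) and PDE7A (0.94) for S100A13. S100A12 was too close to 0 counts for such a ranking, in which TBX3 (0.91) and SLCO4A1 (0.88) came first.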

How the data were processed

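RNA of 8 libraries was measured. The deposited table holds raw gene counts, whole numbers that the authors did not normalize. Per the submitters' processing notes, STAR 2.7.3a aligned the reads to GRCh38. The sources used here name no counting program, annotation, strand setting or separation of mouse reads, so counts of overlapping and antisense genes are uncertain.

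Genes reaching 10 counts in 2 or more of the fitted libraries were tested with edgeR 4.0.16 (R 4.3.3; quasi-likelihood, TMM scaling, two-sided, Benjamini-Hochberg over all tested genes, threshold 0.05). Each label was fitted with a term for drug and another for diet, at 1 residual degree of freedom, so p-values rest largely on the spread shared by all genes. The weight of that shared spread, as median prior degrees of freedom, was 47.2 in marrow and infinite in labelled liver. In labelled liver a typical gene's own spread therefore had no weight. The p-values describe only how these libraries vary, which may be technical. Fits of all 8 libraries had 2 residual degrees of freedom with separate terms per label, 3 with a drug by diet term and 4 with shared terms. The SE is the absolute log2 fold change divided by the root of F. CPM are counts per 1000000 of the library total. Single-library ratios used TMM-scaled totals with exact conditional 95% intervals, levels exact Poisson and shares Clopper-Pearson intervals, and 0 counts were taken to allow 3. All of these cover counting error only, since reads have no molecular identifiers. Correlations used log2 CPM with a prior count of 2. Positions came from GENCODE 29, which held 96.4% of the identifiers.

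The members and gene lists were chosen with earlier results of these data known. Up to 3 called genes per list and comparison, those with the largest change, and the 2 genes most correlated with each member were named. ANXA1, ANXA2, S100A3, the pseudogenes, the levels of LYZ, genes at or near 0 counts and the promoters shown were picked after their values were seen. The diet effect on 1 listed gene is not reported here. Alternatives were DESeq2 1.42.0, limma-voom (limma 3.58.1), scaling by RLE or library totals, no count filter or 50 counts, the earlier quasi-likelihood method, thinned counts, dropping the other factor, separate terms over all 8 libraries, matched pairs as a block, and leaving out each library. Fits were also run on simulated counts with the same dispersion for all genes. Changes were planted there only in genes averaging 50 or more counts, so that run does not cover scarcer genes.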

Additional observations from a re-analysis of the deposited data

Results flagged for a closer look

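The gilteritinib effect on 3 members differed between the tissue labels by a test of the difference itself in the fit of all 8 libraries. In labelled liver minus marrow, the log2 difference was -0.75 for S100A6, -0.69 for S100A10 and -0.55 for S100A4. Of all tested genes, 0.868% were called in this direction. Each call was lost under some alternatives: 2 of 16 for S100A6, 6 of 16 for S100A10 and 11 of 16 for S100A4. The label coincides with the batch code, so tissue and batch cannot be told apart.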

How the results depend on the processing

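Across all alternatives, 1115 values of single members kept their direction where called and their side of the threshold, 74 lost the call, 3 gained it and 0 reversed. For gilteritinib in marrow, 6 members were called, and 3 with a minimum of 50 counts or with DESeq2; S100A8, S100A9 and S100A13 were not tested under the first and had no adjusted p under the second, which gave none for S100P either. That count was 5 with no count filter or with separate terms over all 8 libraries (S100P lost) and 4 without diet as a term (S100A9 and S100P lost). The range with 1 library left out was 3 to 6. For gilteritinib in labelled liver 3 were called, 1 with no count filter or with DESeq2, 0 without diet as a term, and 0 to 0 with 1 library left out. For ketogenic diet in labelled liver 2 were called. That count was 1 with a minimum of 50 counts (S100P not tested), limma-voom, the earlier quasi-likelihood method or thinned counts, 0 with no count filter, DESeq2 (no adjusted p for S100A9 and S100P), without drug as a term or with separate terms over all 8 libraries, and 0 to 0 with 1 library left out. For the drug effect between labels 3 were called, and 0 to 2 with 1 library left out. Over all 8 libraries 4 were called for gilteritinib, and 3 to 5 with 1 library left out. For ketogenic diet over all 8 libraries 0 were called, and 1 (S100P) with the matched pairs as a block. The remaining 4 comparisons had 0 called members under every alternative. The cause of these changes was not tested, except where members were not tested.

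Scaling by library totals moved the median log2 fold change of all genes to -0.15 for gilteritinib in marrow, with 871 genes called higher and 2752 lower in place of 1473 and 1375, and to 0.11 for the drug effect between labels; all 6 marrow calls held, and S100A4 was lost between labels and over all 8 libraries. The labels carry no replicate numbers, but libraries can be paired by label and by the other factor. The fits within a label hold this pairing as a term. Over all 8 libraries, an alternative chosen after seeing the data took the matched pairs as a block (3 residual degrees of freedom). It called 3 members for gilteritinib (S100A4 lost) and 1 for ketogenic diet (S100P, in place of 0), and changed no other call. With 1 library left out, a label's effect comes from a single pair, and the library left alone was assumed to vary like the others. Members under 10 CPM rest on 0 to 145 counts.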
